A study of Rattus norvegicus with 6 samples.

Results

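Ifit1, Ifit2, Ifit3, Irf1, Irf7, Ifi27, Ifi44, Ifih1 and Gbp2 are 9 interferon-stimulated genes, and their RNA was measured in the livers of 6 male rats. The genes were given by symbol and matched to every probe of the array through the RefSeq accession that the scanner files list for it. All 9 were found among the 15639 symbols on the array, with 15 probes between them, and all 9 were among the 11939 genes tested. The rats were of the Sprague-Dawley stock (Crl:CD(SD)) and were 5 weeks old when purchased. One group of 3 received corn oil, the vehicle, and the other group of 3 was dosed with the solvent carbon tetrachloride (CCl4), 100 mg/kg/day. Liver cytochrome P450 enzymes turn CCl4 into reactive products, and repeated dosing injures and scars the liver. The sources conflict on the exposure, with 9 weeks of dosing in the treatment protocol and 28 days in the series design. The sample titles also carry the number 28, without a unit, and nothing in the files states which length is right.

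Interferons are secreted proteins that alarm cells to infection and tissue damage. Type I interferons (alpha and beta) bind IFNAR receptors, and the kinases JAK1 and TYK2 then phosphorylate STAT proteins, which join IRF9 to form a complex called ISGF3. ISGF3 binds a DNA element called the interferon-stimulated response element (ISRE) in front of antiviral genes. Interferon gamma, made mainly by T and NK cells, acts through its own receptor and JAK1 and JAK2 to form STAT dimers, which bind the gamma-activated sequence (GAS). In the liver, hepatocytes, macrophages and endothelial cells can all respond to interferons. Of the 9 genes, Ifih1 encodes the RNA sensor MDA5, Irf1 and Irf7 encode transcription factors, the Ifit genes, Ifi27 and Ifi44 encode effectors, and Gbp2 encodes a GTPase best known as a target of interferon gamma.

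Promoters were searched for the letters of the ISRE and the GAS, and stretches of them are printed for 5 genes whose RNA is described in detail. RefSeq promoter windows of the GRCr8 assembly, which cover 250 bases before and 50 bases after each gene's start, were found for 7 of the 9 genes. Ifit1 and Ifit2 had no entry. The ISRE core was searched as GAAA, any 2 bases and GAAA again, which on the other strand reads TTTC, any 2 bases and TTTC, and the GAS as TTCNNNGAA, which reads the same on both strands. An ISRE core was present in 6 of the 7 windows, against 3.92% of 33469 promoter windows of the same length. A GAS was present in 1 of the 7, Irf1, against 8.87% of the windows. No window of the 7 held both motifs, so the matches did not overlap. A match is a run of letters and not a measured binding site. The sequences run 5′ to 3′ along the gene's own strand for 180 bases ending near the start, in lower case with the ISRE core, or in Irf1 the GAS, in capitals. The stretches lie at chr1:205800024-205800203 (minus strand) for Irf7, chr1:241527146-241527325 (plus strand) for Ifit3, chr2:243303841-243304020 (minus strand) for Ifi44, chr2:234005547-234005726 (plus strand) for Gbp2 and chr10:38417755-38417934 (plus strand) for Irf1.
Irf7: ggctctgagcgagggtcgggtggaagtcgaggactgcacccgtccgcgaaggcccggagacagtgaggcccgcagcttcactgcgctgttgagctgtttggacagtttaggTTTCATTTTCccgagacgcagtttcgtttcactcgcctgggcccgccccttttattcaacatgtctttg
Ifit3: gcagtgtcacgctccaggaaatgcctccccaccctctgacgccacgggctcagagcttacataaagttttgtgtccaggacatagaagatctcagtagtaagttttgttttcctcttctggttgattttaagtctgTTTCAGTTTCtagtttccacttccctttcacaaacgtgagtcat
Ifi44: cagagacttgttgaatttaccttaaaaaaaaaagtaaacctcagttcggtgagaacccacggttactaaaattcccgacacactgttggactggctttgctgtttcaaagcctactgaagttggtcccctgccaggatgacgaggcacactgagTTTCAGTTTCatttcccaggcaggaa
Gbp2: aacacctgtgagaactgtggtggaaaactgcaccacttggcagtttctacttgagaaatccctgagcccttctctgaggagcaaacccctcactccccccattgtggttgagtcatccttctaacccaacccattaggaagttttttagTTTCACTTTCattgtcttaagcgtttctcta
Irf1: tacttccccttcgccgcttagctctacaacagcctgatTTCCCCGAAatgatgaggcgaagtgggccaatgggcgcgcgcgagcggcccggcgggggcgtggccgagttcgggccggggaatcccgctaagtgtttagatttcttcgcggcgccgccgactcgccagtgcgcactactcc
The core TTTCATTTTC of Irf7 lay 69 to 60 bases before the start, and TTTCAGTTTC lay 44 to 35 bases before it in Ifit3 and 26 to 17 bases before it in Ifi44. Ifi44 held a further core, TTTCGTTTTC, 27 to 36 bases after the start, which is outside the stretch printed. The core TTTCACTTTC of Gbp2 lay 31 to 22 bases before the start, and the GAS TTCCCCGAA of Irf1 lay 142 to 134 bases before it. Among the genes not printed, Ifih1 held GAAACAGAAA 59 to 50 bases before the start. Ifi27 held GAAAAGGAAA and GAAATGGAAA, 169 to 160 and 84 to 75 bases before it.

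Each rat gave 1 one-colour Agilent array. Values are log2 of the processed signal minus the array's 75th percentile, so a level of 0 is as bright as that percentile and a difference of 1 is a 2-fold change. The 75th percentile lay between 582.6 and 675.6 units, and the software marked 61.9% to 67.3% of 61537 probes on an array as well above background. The 3 corn oil arrays and CCl4 replicate 1 lay on 1 slide, and CCl4 replicates 2 and 3 lay on another slide scanned on another day. Values on the first slide therefore set 1 CCl4 animal against the 3 corn oil animals. All 16 hepatocyte markers were detected. Their summed signal, in multiples of the 75th percentile, was 8222 to 8867 in corn oil and 6548 to 7506 in CCl4 livers. Of the 16, 14 were lower and 2 higher in CCl4, while 42.8% of all genes tested were higher. The test was passed by 0 of the 16, against 0.637% of all genes tested. The arrays measured whole liver, so fewer cells of a type and less RNA per cell cannot be told apart.

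No difference between CCl4 and corn oil livers passed the test for any of the 9 interferon-stimulated genes. Irf7, Ifit3 and Gbp2 were higher on average in CCl4 livers, by 1.52-fold, 1.35-fold and 1.34-fold, and Ifi44 was lower, with 1 animal far below the rest. With limma over all genes tested and Benjamini-Hochberg adjustment, 0 of 9 passed the threshold of 0.05, against 0.637% of the 11939 genes tested (76 genes, 67 higher and 9 lower). Adjusted p-values of the 9 genes ran from 0.360 to 0.994. Before adjustment the smallest p of the 9 was 0.119, so 0 of 9 were below 0.05, against 19.7% of all genes. The log2 change was positive for 7 of the 9, against 42.8% of all genes, although that of Ifit2 was near 0 and turned negative under quantile and median scaling. On the first slide alone, the changes of Ifit1 and Ifih1 were also negative, at -1.16 and -0.10. The median change of the 9 was 0.17 and that of all genes was -0.048. The values of the 2 groups overlapped for all 9 genes, while 27.4% of all genes had groups that did not overlap. With 1 row per probe, 0 of the 15 probes passed, against 0.341% of the 40478 probes tested.

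**Figure D1:**
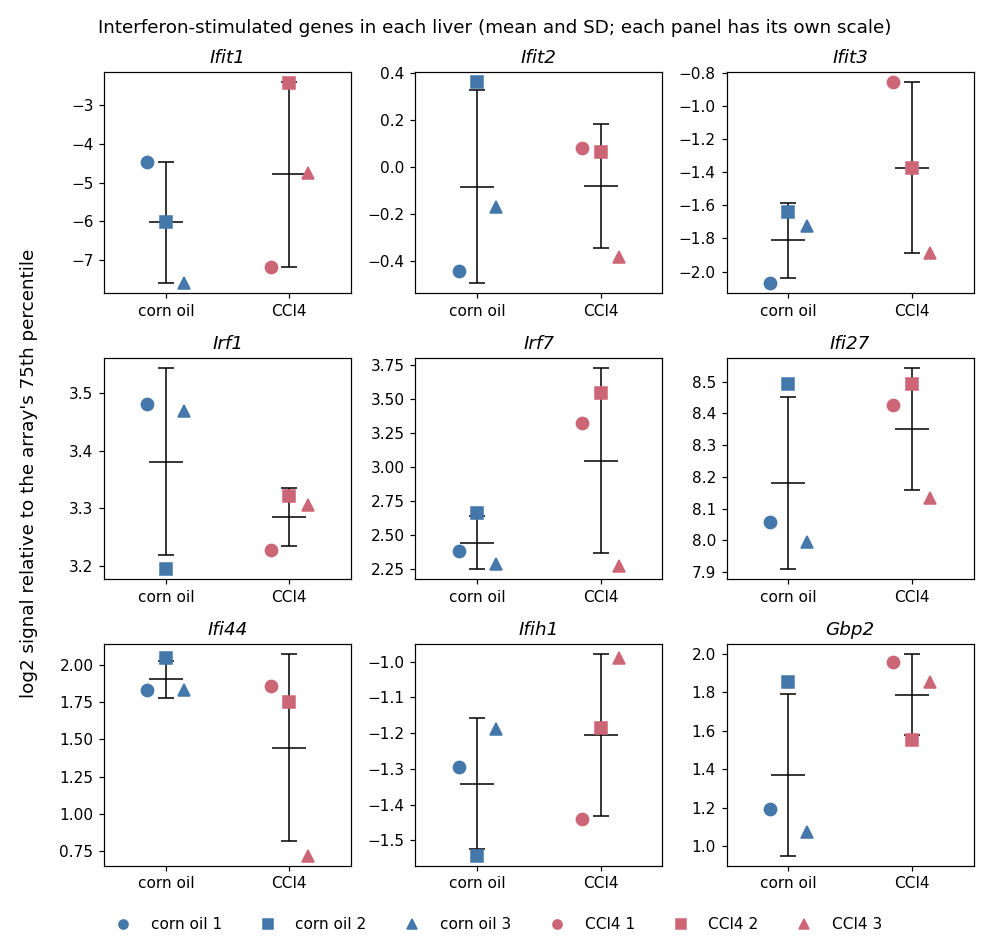
Level of each of the 9 genes in each animal, as log2 signal relative to the array's 75th percentile, for 3 corn oil and 3 CCl4 livers; each panel has its own axis, each point is 1 array, and the bars are the mean and SD of 3 arrays. In the Irf7 panel CCl4 replicates 1 and 2 (3.33 and 3.54) lie above the corn oil animals and CCl4 replicate 3 (2.28) lies just below the lowest of them (2.29).

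Irf7 encodes the transcription factor that amplifies type I interferon production, and it is itself induced through an ISRE. Its level was 2.39, 2.66 and 2.29 in corn oil replicates 1, 2 and 3 and 3.33, 3.54 and 2.28 in CCl4 replicates 1, 2 and 3. Thus 2 of the 3 CCl4 animals were above every corn oil animal, and the third was just below the lowest of them. The difference was 0.61 ± 0.34 on the log2 scale (SE, n = 3 per group; 95% interval -0.21 to 1.42), or 1.52-fold, and did not pass limma's test (adjusted p = 0.360). Against the corn oil mean, the CCl4 animals stood at 0.88, 1.10 and -0.17. Leaving out each array in turn gave differences from 0.36, without CCl4 replicate 2, to 0.99, without CCl4 replicate 3. Limma's adjusted p was 0.0576 without CCl4 replicate 3 and 0.384 to 0.685 with any other array left out. CCl4 replicate 3 was the lowest CCl4 animal for Irf7, so a larger difference without it was built in.

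Irf1 encodes a transcription factor that interferon gamma induces. Its brighter probe read 3.48, 3.19 and 3.47 in corn oil and 3.23, 3.32 and 3.31 in CCl4 animals. The CCl4 values lay within the range of the corn oil animals. The difference was -0.10 ± 0.12 on the log2 scale (SE, n = 3 per group; 95% interval -0.38 to 0.19; limma adjusted p = 0.671), and the second probe also gave -0.10. This interval leaves out a 2-fold change in either direction.

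Ifih1 encodes MDA5, which senses long double-stranded RNA and triggers interferon production. Its single probe read -1.29, -1.54 and -1.19 in corn oil and -1.44, -1.18 and -0.99 in CCl4 animals. The groups overlapped, and CCl4 replicate 3 had the highest value of the 6 arrays. The difference was 0.14 ± 0.16 (log2, SE, n = 3 per group; 95% interval -0.25 to 0.52; limma adjusted p = 0.660). It was -0.10 on the first slide.

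The Ifit genes encode proteins with tetratricopeptide repeats that bind foreign RNA and block its translation. Ifit3, which joins the other IFIT proteins into a complex, read -2.07, -1.64 and -1.72 in corn oil and -0.86, -1.37 and -1.89 in CCl4 animals on its brighter probe. CCl4 replicates 1 and 2 were above all corn oil animals, and CCl4 replicate 3 was among them. The difference was 0.44 ± 0.27 (log2, SE, n = 3 per group; 95% interval -0.22 to 1.10; limma adjusted p = 0.411), or 1.35-fold. The dimmer Ifit3 probe gave a difference of 0.45, with levels of -4.28, -3.38 and -3.50 in corn oil and -3.07, -2.93 and -3.80 in CCl4 animals. On both probes CCl4 replicates 1 and 2 were above all corn oil animals and CCl4 replicate 3 was among them. The Ifit3 difference was 0.96 on the first slide, 0.18 without CCl4 replicate 1 and 0.70 without CCl4 replicate 3.

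Ifit2 encodes an IFIT protein that also has roles in cell death. Its brighter probe read -0.44, 0.36 and -0.17 in corn oil and 0.08, 0.06 and -0.38 in CCl4 animals. All 3 CCl4 values lay within the spread of the corn oil animals, of which replicate 2 was highest and replicate 1 lowest. The difference was 0.0039 ± 0.24 (log2, SE, n = 3 per group; 95% interval -0.58 to 0.58; limma adjusted p = 0.994). The other Ifit2 probe gave a difference of 0.27. That probe was also lowest in corn oil replicate 1 (-3.18) and highest in corn oil replicate 2 (-1.96).

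Ifit1 encodes the founding member of the family, a sensor of viral RNA caps. Its single probe was near the limit of detection and was well above background on 3 of the 6 arrays, namely corn oil replicate 1 and CCl4 replicates 2 and 3. It read -4.47, -6.00 and -7.59 in corn oil and -7.19, -2.42 and -4.75 in CCl4 animals, and values on the other 3 arrays were not well above background. The spread within each group was larger than the difference of 1.24 ± 1.31 (log2, SE, n = 3 per group; 95% interval -1.93 to 4.40; limma adjusted p = 0.623). Without CCl4 replicate 2 the difference was 0.055, and on the first slide it was -1.16. The data therefore do not fix a direction for Ifit1.

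**Figure D2:**
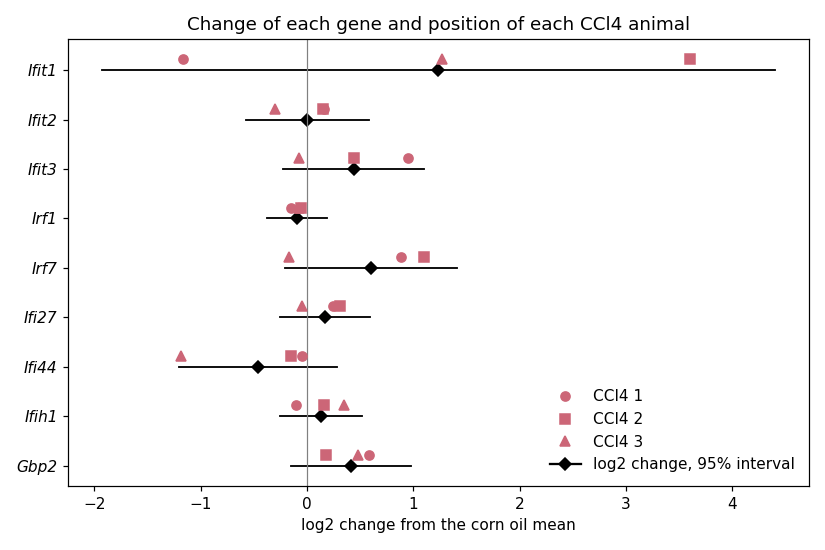
Difference between CCl4 and corn oil livers on the log2 scale for each of the 9 genes, as limma's estimate with its 95% interval, and the difference of each CCl4 animal from the corn oil mean. Every interval includes 0; that of Ifit1 is the widest (-1.93 to 4.40) and that of Irf1 the narrowest (-0.38 to 0.19).

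Ifi27 encodes a small mitochondrial membrane protein that is a common marker of interferon exposure. Its brighter probe read 8.06, 8.49 and 7.99 in corn oil and 8.43, 8.49 and 8.13 in CCl4 animals. To 2 decimals, corn oil replicate 2 was as high as the highest CCl4 animal. The difference was 0.17 ± 0.18 (log2, SE, n = 3 per group; 95% interval -0.26 to 0.59; limma adjusted p = 0.614), and the second probe gave 0.21.

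Ifi44 encodes a cytoplasmic protein that limits the growth of several viruses. Its brightest probe read 1.83, 2.05 and 1.83 in corn oil and 1.86, 1.75 and 0.72 in CCl4 animals. The level was alike in 5 animals, within 0.30 on the log2 scale, and CCl4 replicate 3 lay 1.03 below the lowest of them. The other Ifi44 probes showed the same animal low. One read 1.31, 1.56 and 1.37 in corn oil and 1.33, 1.35 and 0.15 in CCl4 animals, with CCl4 replicate 3 lower than every other array by 1.16. On the third, CCl4 replicate 3 was at 0.89 against 1.57 to 1.83 in the other 5 animals. The 3 probes gave group differences of -0.46, -0.47 and -0.25, and on the brightest it was -0.46 ± 0.31 (SE, n = 3 per group; 95% interval -1.20 to 0.28; limma adjusted p = 0.438). Without CCl4 replicate 3 it was -0.10, and without CCl4 replicate 1 it was -0.67. Of the 11101 genes well above background on all arrays, 9 genes, or 0.0811%, had CCl4 replicate 3 at least 1 below the lowest other array. These were Acot5, Ifi44, Mst1, Slpi, Sult2a6, Syne4, Tmem30b, UST4r and Wfdc2, listed after their values were seen, and Ifi44 was the only one of the 9 interferon-stimulated genes among them.

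**Figure D3:**
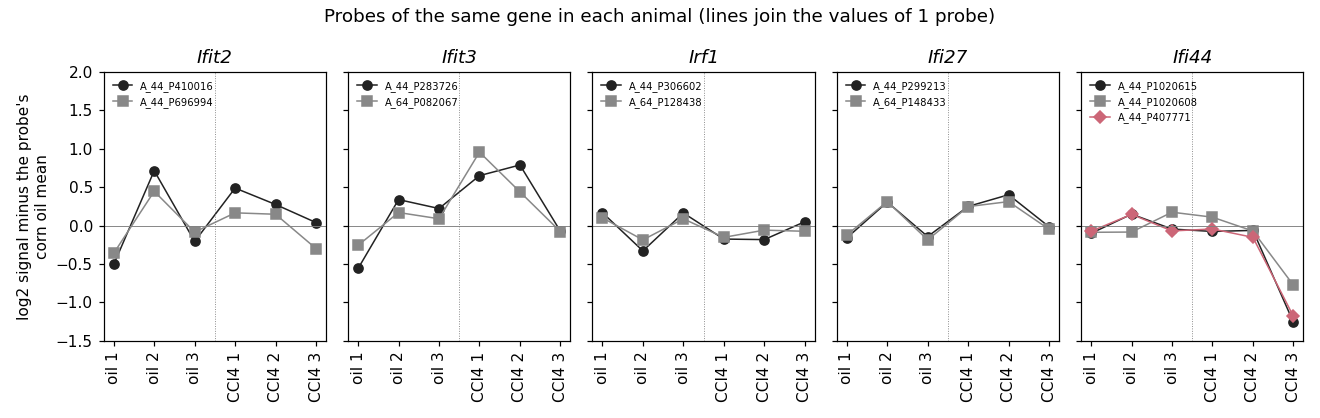
Log2 signal of every probe of the 5 genes with more than 1 probe, minus that probe's corn oil mean, in each of the 6 animals; lines join the values of 1 probe. The 3 Ifi44 probes each have CCl4 replicate 3 lowest, by 0.69 to 1.16 below the lowest other array.

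Gbp2 encodes a guanylate-binding protein that attacks the membranes around intracellular microbes. Its single probe read 1.19, 1.85 and 1.07 in corn oil and 1.96, 1.55 and 1.85 in CCl4 animals. CCl4 replicate 3 was not low for Gbp2, and the overlap came from corn oil replicate 2. The difference was 0.42 ± 0.23 (log2, SE, n = 3 per group; 95% interval -0.15 to 0.98; limma adjusted p = 0.364), or 1.34-fold. Leaving out each array in turn gave 0.27, without corn oil replicate 3, to 0.66, without corn oil replicate 2.

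The animals differed within both groups. Corn oil replicate 2 had the highest corn oil value for 6 of the 9 genes (Ifit2, Ifit3, Irf7, Ifi27, Ifi44 and Gbp2), while 34.8% of all genes tested were highest in that animal among the corn oil animals. CCl4 replicate 3 had the lowest CCl4 value for 5 of the 9 (Ifit2, Ifit3, Irf7, Ifi27 and Ifi44), against 32% of all genes tested. The median of the 9 genes against their corn oil means was -0.074, 0.17 and -0.085 in corn oil replicates 1, 2 and 3 and 0.17, 0.18 and -0.075 in CCl4 replicates 1, 2 and 3. By this median corn oil replicate 2 stood with CCl4 replicates 1 and 2, and CCl4 replicate 3 stood with the other corn oil animals. The probes for families with similar copies (the Ifit, Ifi27, Gbp and Oas1 genes) may share signal among copies, and this was not tested.

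The other genes of the pathway were followed in 7 lists by role, of which 121 genes were tested. None of the 121 passed the threshold with limma, against 0.637% of all genes. At an unadjusted p below 0.05, 22 of 121 passed, against 19.7% of all genes, and the median change was 0.11 against -0.048. The groups did not overlap for 19 genes that were higher and 10 that were lower in CCl4, against 11.5% and 15.9% of all genes. The smallest adjusted p was 0.0594, for Cnp.

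The genes for the interferons themselves were mostly too dim to measure. Of 10 ligands and accompanying cytokines on the array, 6 were not well above background on any array, among them Ifng and Ifnb1, and 4 were tested. Of these, 0 passed and 3 had positive changes. Il15, a cytokine that sustains NK and memory T cells, had a change of -0.36 ± 0.13 (log2, SE; limma adjusted p = 0.217) and groups that did not overlap. Il18, which drives interferon gamma production, had a change of 0.14, and Ifna4 one of 0.039.

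Receptor genes were detected for both interferon types. Of 4 tested, 0 passed and 3 were positive. Ifngr2, a chain of the interferon gamma receptor, had the largest change at 0.39 ± 0.19 (log2, SE; limma adjusted p = 0.312), followed by Il10rb at 0.12 and Ifngr1 at 0.065. Ifnar1, a chain of the type I receptor, had a change of -0.011.

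Among kinases and transcription factors downstream of the receptors, 0 of 13 passed, 7 were positive and the median change was 0.003. Of the parts of ISGF3, Stat2 had a change of 0.018 ± 0.17 and Irf9 one of -0.065 ± 0.14 (log2, SE, n = 3 per group), both smaller than their standard errors. Jak2, the kinase of the interferon gamma receptor, had a change of 0.41 ± 0.12 (limma adjusted p = 0.139) with groups that did not overlap. Irf8 and Irf5, transcription factors of myeloid cells, had changes of 0.60 and 0.46. Crebbp, a coactivator of transcription, had a change of -0.22.

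Negative regulators gave 0 of 11 past the threshold, with 4 positive and a median of -0.048, close to that of all genes. Usp18, which strips ISG15 from proteins and blocks the type I receptor, read 0.86, 0.68 and 0.53 in corn oil and 1.75, 1.47 and 0.27 in CCl4 animals. It was above all corn oil animals in CCl4 replicates 1 and 2 and below all of them in CCl4 replicate 3, and the difference was 0.47 ± 0.38 (log2, SE, n = 3 per group; limma adjusted p = 0.518). Cish, a STAT inhibitor of the SOCS family, read -1.16, -0.19 and 0.91 in corn oil and -1.78, -0.83 and -1.70 in CCl4 animals, a difference of -1.29 ± 0.54 with overlapping groups (limma adjusted p = 0.255). Ptpn11, a phosphatase, had a change of 0.48, Trim21 one of 0.17 and Socs3 one of -0.50, and none of the 3 passed.

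Nucleic acid sensors and adaptors, to which Ifih1 belongs by function, gave 0 of 14 past the threshold, 9 positive and a median of 0.058. Sting1, the adaptor for cytosolic DNA, read -0.46, -0.38 and -0.48 in corn oil and 0.04, 0.20 and 0.23 in CCl4 animals. The groups did not overlap, and the difference was 0.59 ± 0.10 (log2, SE, n = 3 per group; limma adjusted p = 0.0656). The second Sting1 probe gave 0.035, so the probes disagreed in size. Irak1 had a change of 0.54 and Ikbke one of 0.52, and Myd88 and Trim25 had changes of -0.32 and -0.29.

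The 48 other interferon-stimulated genes of the type I kind had 0 past the threshold, 35 with positive changes and a median of 0.22. Their groups did not overlap for 8 higher and 1 lower gene, against 11.5% and 15.9% of all genes. Isg15, a ubiquitin-like protein attached to other proteins after interferon, read 1.90, 1.99 and 2.00 in corn oil and 3.41, 3.02 and 1.91 in CCl4 animals. Oasl, an antiviral member of the oligoadenylate synthetase family, read -3.44, -3.70 and -3.62 in corn oil and -1.60, -1.18 and -3.65 in CCl4 animals. In both genes CCl4 replicates 1 and 2 were more than 1 above the corn oil mean and CCl4 replicate 3 was within the corn oil range. A level at least 1 above the corn oil mean in both CCl4 replicates 1 and 2 was seen for 4 of the 48 genes, against 2.91% of all genes. Rsad2, which encodes the antiviral enzyme viperin, read 0.25, 0.70 and 0.56 in corn oil and 2.51, 2.07 and 0.81 in CCl4 animals. Ifi27l2b, a relative of Ifi27, read 7.71, 7.71 and 7.59 in corn oil and 9.06, 9.02 and 8.16 in CCl4 animals. For both, CCl4 replicate 3 was the lowest CCl4 animal but stayed above the corn oil animals.

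The differences of these genes, on the log2 scale with SE and n = 3 per group, were 0.81 ± 0.37 for Isg15 (limma adjusted p = 0.280), 1.44 ± 0.61 for Oasl (0.261), 1.30 ± 0.43 for Rsad2 (0.188) and 1.08 ± 0.25 for Ifi27l2b (0.101). Cnp, a phosphodiesterase of interferon-treated and myelinating cells, read -2.62, -2.13 and -2.45 in corn oil and -1.44, -1.35 and -1.55 in CCl4 animals. It did not share the low value in CCl4 replicate 3, and its difference was 0.96 ± 0.15 (limma adjusted p = 0.0594). Mx1, a dynamin-like antiviral GTPase, had a change of 0.08 ± 0.16 (limma adjusted p = 0.806), and its second probe gave -0.25. Among the genes well above background on all arrays, the most negative changes were those of Tor3a at -0.99 and Shisa5 at -0.29, which did not pass.

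**Figure D4:**
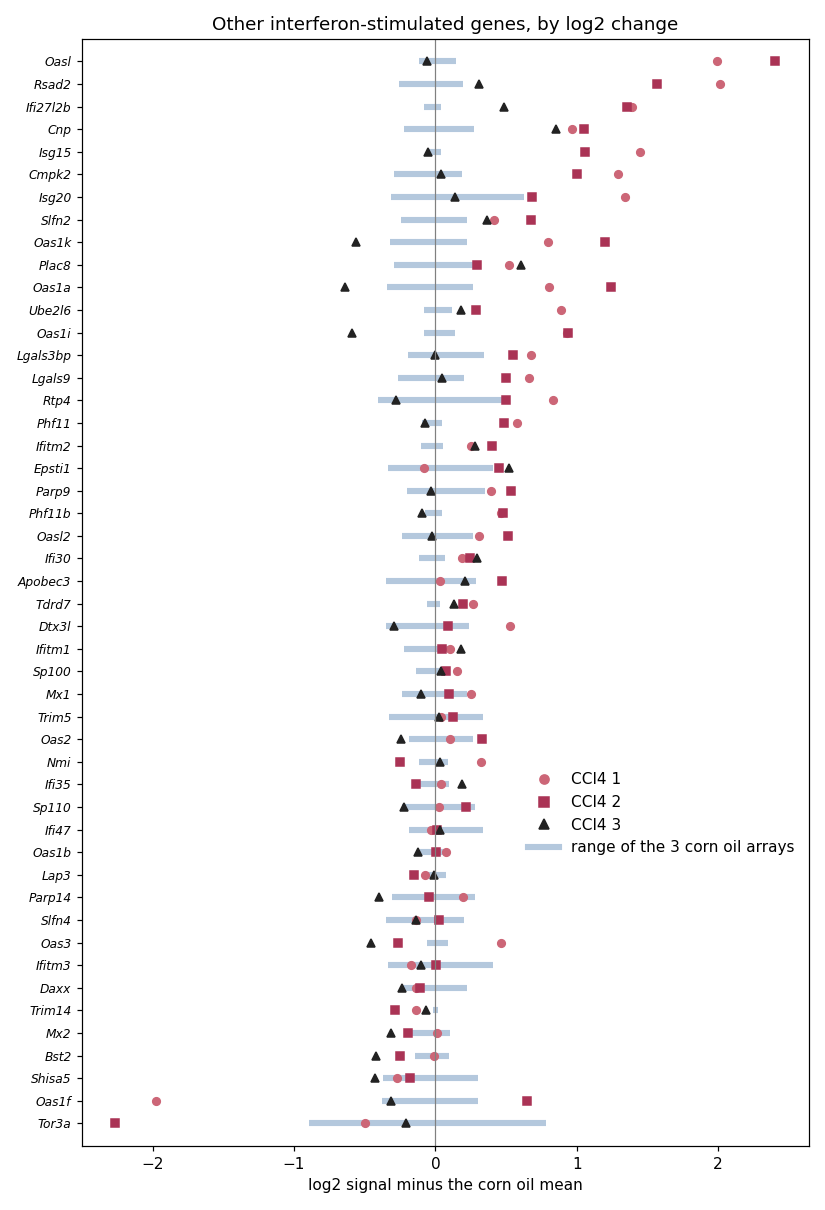
Difference of each CCl4 animal from the corn oil mean, on the log2 scale, for the 48 other interferon-stimulated genes in order of their log2 change; points are single arrays and bars the range of the 3 corn oil arrays. Isg15 and Oasl are high in CCl4 replicates 1 and 2 and within the corn oil range in CCl4 replicate 3, and Cnp is above the corn oil animals in all 3.

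CCl4 replicate 3 was the lowest CCl4 animal for 34 of these 48 genes, against 32% of all genes. The median of the list against the corn oil means was 0.26, 0.29 and -0.044 in CCl4 replicates 1, 2 and 3, and -0.018 to 0.033 in the corn oil animals. When CCl4 replicate 3 was left out, 2.02% of all genes passed, and 6 of the 121 pathway genes rose and passed limma's test. These were Oasl by 2.20 (adjusted p = 0.0133), Ifi27l2b by 1.37 (0.0147), Rsad2 by 1.79 (0.0325), Isg15 by 1.25 (0.0353), Oas1i by 0.93 (0.0388) and Casp4 by 2.03 (0.0455), all on the log2 scale. With all animals the difference of Oas1i was 0.43. None of the 9 genes given by symbol passed in that fit. It has 2 CCl4 animals, 1 on each slide. The fit leaves out the animal just described as lowest for most of these genes, so larger differences were built in. Its p-values are therefore no independent support. With any other single array left out, 0 of the 121 passed.

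The 27 tested targets of interferon gamma had 0 past the threshold, 19 with positive changes and a median of 0.17, the same to 2 decimals as the median of the 9 genes. CCl4 replicate 3 was the lowest CCl4 animal for 10 of the 27. The list's median against the corn oil means was 0.19, 0.16 and 0.23 in CCl4 replicates 1, 2 and 3, so that animal did not stand apart here. Casp4, an inflammatory caspase that senses bacterial lipopolysaccharide, read -0.85, 0.02 and -0.67 in corn oil and 1.33, 1.72 and 0.59 in CCl4 animals. Its groups did not overlap and the difference was 1.71 ± 0.35 (log2, SE, n = 3 per group; limma adjusted p = 0.0801). Gbp5, of the same family as Gbp2, read -0.86, -0.40 and -1.39 in corn oil and -0.07, 0.11 and -0.33 in CCl4 animals, with a difference of 0.78 ± 0.27 (limma adjusted p = 0.197). Ciita, the master regulator of MHC class II genes, and Psmb9, an immunoproteasome subunit, had changes of 0.76 and 0.67, also with groups that did not overlap. Among the 27, groups did not overlap for 7 higher and 3 lower genes, against 11.5% and 15.9% of all genes. The chemokine genes Cxcl10 and Cxcl11 had changes of 0.48 and -0.28, and the groups of Cxcl11 did not overlap either. Irgm had a change of -0.50. None of these passed.

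Markers of other cell types were described in the same arrays. Of 19 tested macrophage and Kupffer cell markers, Trem2 and Gpnmb rose, against 0.637% of all genes called, while the summed signal of the list overlapped between groups (225.8 to 273.0 in corn oil and 238.2 to 284.7 in CCl4, in multiples of the 75th percentile). Summed dendritic cell markers were 4.56 to 4.80 in corn oil and 5.66 to 5.98 in CCl4 livers, with 0 of 9 past the threshold and Xcr1 not well above background on any array. Summed T, NK and B cell markers were 153 to 175 in corn oil and 135 to 143 in CCl4 livers. Of 19 tested, Gzma alone passed, with a fall (0.637% of all genes were called). Changes were positive for 9 and negative for 10 of the 19, with a median of -0.056 against -0.048 for all genes. CCl4 replicate 3 was the lowest CCl4 animal for 10 of the 12 stellate cell and myofibroblast markers, whose sums were 100.5 to 194.0 in corn oil and 145.5 to 160.3 in CCl4 livers, and for 2 of the 19 macrophage markers. Neutrophil markers summed to 3.41 to 7.10 in corn oil and 2.33 to 5.14 in CCl4 livers, and Elane, Cxcr2, Ltf and Mmp8 were not well above background on any array. The part of these cells in the interferon values was not tested.

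The genes whose profile over the 6 animals was most like the mean of the 9 were Mycl, Lcp2, Fdft1, Esco1 and Hmga1. That mean was unweighted and included Ifit1, which was well above background on 3 of the 6 arrays. Ifit1 ranged over 3.12 in corn oil and 4.77 in CCl4 animals, more than any other of the 9. The mean profile, and so this choice of genes, therefore leans on that dim probe. Likeness was the mean absolute difference of gene-centred log2 profiles, over 11093 genes well above background on all arrays, and it was 0.037 for Mycl and 0.070 for Hmga1. Against Irf7 alone, a reference chosen after the values were seen, the most alike were S100g (0.050), Pde10a (0.054), Itga6 (0.064), Mmp2 (0.081) and Rgs5 (0.099). Chosen for their likeness to Irf7, all 5 were by that choice high in CCl4 replicates 1 and 2 and low in CCl4 replicate 3 among the CCl4 animals.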

How the data were processed

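Liver RNA of 6 rats was measured on one-colour Agilent arrays. Per the file headers, the authors' scanner files hold an intensity for each spot, background-subtracted but not scaled between arrays by Agilent Feature Extraction 10.7.1.1 (10.7 per the submitters' processing notes). The authors' deposited value table holds linear ratios, which are that signal divided by 583.3 to 676.5 units per array. Its column medians were 0.103 to 0.110, and this scaling was inferred from the values. Control spots (1439) and 26 probes with an outlier flag were removed. Unversioned RefSeq accessions gave 1 symbol for 28206 of 61537 probes, and none for 33331, in a GRCr8 gene table. Values are log2 signal less the 75th percentile of the array. A gene entered the test through its brightest probe among those well above background on 3 or more arrays.

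Differences were tested two-sided with limma 3.58.1 (lmFit and eBayes without trend, in R 4.3.3), adjusted by Benjamini-Hochberg over all genes or all probes, at a threshold of 0.05. The script was tested on simulated data. With 3 arrays per group, the number of arrays limits the precision, and 0 to 4 probes per array were saturated. The labels describe replicates as separate animals. The genes, lists and tests were chosen with earlier results of these data known, so patterns seen before are no independent support. Named genes of a list are its 3 most positive and 2 most negative genes among those well above background on all arrays, and Stat2, Irf9, Ifng, Ifnb1, Isg15, Mx1, Cxcl10 and Usp18 whatever their values. Cnp, Oas1i, Psmb9 and the cell markers were named after their values were seen. A few named genes of the signalling list are left out of the text. Summed markers not given above were 1.78 to 2.07 in corn oil and 2.18 to 4.96 in CCl4 livers for bile duct cells, and 44.4 to 52.6 and 37.4 to 44.9 for endothelial cells.

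Alternatives tried were quantile normalization, median scaling, the authors' values, normexp with an offset of 50 (on median spot signals instead of the planned mean), no filter on dim probes, all 6 arrays above background, averaging the probes of a gene, slide as a fixed or random block (statmod 1.5.0), the first slide only, a replicate block, and each array left out in turn. Tables and plots used Python 3.11.15 (numpy 2.4.6, pandas 2.3.3, matplotlib 3.10.9).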

Additional observations from a re-analysis of the deposited data

How the results depend on the processing

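None of the 9 genes passed the threshold under any of the 17 alternatives with limma, and between 0 and 2 of them had an unadjusted p below 0.05. Irf7, Ifit3, Ifi27, Gbp2 and Ifi44 kept their sign in all alternatives. Ifit1 was -1.16 with slide as a fixed block and on the first slide alone, where Ifih1 was -0.10. Ifit2 was -0.0019 under quantile normalization, -0.025 under median scaling and -0.0047 with slide as a random block, and from -0.18 to 0.23 when 1 array was left out. Irf1 was 0.019 under normexp. Among the 121 pathway genes, 2 passed under normexp (Cnp and Sting1), 1 with the filter on all 6 arrays (Cnp), 6 without CCl4 replicate 3 and 0 otherwise, and their median stayed between 0.079 and 0.14.

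Over all genes, 76 passed, against 207 under normexp, 139 with the filter on all 6 arrays, 4 with slide as a fixed block, 0 on the first slide alone (1598 at an unadjusted p below 0.05) and 2 to 241 when 1 array was left out. The highest was without CCl4 replicate 3 and the lowest without CCl4 replicate 2. Over all probes, 138 passed, against 62 with no filter, 13 with slide as a fixed block, 0 on the first slide alone (4569 at an unadjusted p below 0.05) and 2 to 256 when 1 array was left out. With the replicate number as a block, 10 genes and 0 probes passed (6614 probes at an unadjusted p below 0.05). Deviations of same-numbered animals correlated at -0.052, 0.16 and 0.019 for replicates 1, 2 and 3. Only the animals numbered 2 were each other's best match in both directions. With 3 animals per group, these values cannot decide whether the numbers pair the animals. The cause of these changes in the counts was not tested.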
